A study of Mus musculus with 45 samples.

Results

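The 10 genes described here encode the cyclins, kinases, retinoblastoma protein and E2F factors that act at the exit from G1: Ccnd1, Ccnd2, Ccnd3, Ccne1, Ccne2, Cdk4, Cdk6, Rb1, E2f1 and E2f2. They were taken by gene symbol from a table of 55450 genes, by a rule that uses no measured value though it was written with earlier results of these data known, and all 10 passed the filter on low counts in every comparison. RNA-seq had been made from 4 lymphocyte populations sorted from the draining popliteal lymph nodes of wild type (WT) mice and of littermates lacking the sphingosine 1-phosphate receptor S1PR4 (strain B6.129P2-S1pr4tm1Dgen/J, backcrossed to C57/BL6). Male and female mice, 8 to 12 weeks old, had all been immunized in the hind footpad with 20 µL of an incomplete Freund's adjuvant emulsion that held 50 µg of ovalbumin and 5 µg of lipopolysaccharide. Germinal center (GC) B cells (B220+ GL7+ Fas+) and non-GC B cells (B220+ GL7- Fas-) were sorted on day 9. Follicular helper T (Tfh) cells (TCRβ+ CD4+ PD1+ CXCR5+) and non-Tfh cells (TCRβ+ CD4+ PD1- CXCR5-) were sorted on day 6, so that lineage and day of sort cannot be told apart. Each population had 6 WT and 6 S1PR4-/- samples, except non-GC B cells with 5 WT and 4 S1PR4-/- samples. The S1PR4 loss was present in all cells of the S1PR4-/- mice, since the allele is a germline one, and the sorted fractions are mixtures of cells at different cell cycle stages.

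In the textbook account, D-type cyclins bind CDK4 or CDK6 when a cell receives growth signals, and the complexes phosphorylate the retinoblastoma protein encoded by Rb1. This releases E2F factors such as E2F1 and E2F2, which switch on genes for DNA synthesis, among them the E-type cyclins that activate CDK2 and complete the passage into S phase. In the germinal center, B cells alternate between division and selection with help from Tfh cells, and cyclin D3 is known for its part in the divisions of GC B cells.

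The samples held between 26299429 and 45548215 expected counts each. S1pr4 had 505 to 6305 counts in WT samples and 0 to 40 in S1PR4-/- samples, with no overlap. The defining genes of each sort matched the labels: 8 GC B markers summed to 1477 to 2609 CPM (counts scaled by sample depth) in GC B cells and 137 to 190 CPM in non-GC B cells, and 8 Tfh markers summed to 2661 to 4094 CPM in Tfh cells and 209 to 486 CPM in non-Tfh cells. The 12 T cell markers summed to 3.72 to 103 CPM in B cell samples. The 12 B cell markers summed to 371 to 1296 CPM in Tfh samples and 40.4 to 209 CPM in non-Tfh samples, and so differed between the T cell sorts. Levels below are in CPM, scaled by the trimmed mean of M values, and a gene was called changed at a false discovery rate (FDR, edgeR, Benjamini-Hochberg over all genes tested) under 0.05 with a fold change over 1.5.

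Of the 10 genes, 6 had an entry in the RefSeq promoter table (GRCm38.p6): Ccnd3, Ccne1, Cdk4, Cdk6, E2f1 and E2f2. Cdk4, the catalytic partner of the D cyclins, is shown because its 250 bases up to the transcription start held 4 copies of CACGTG, the E box bound by factors such as MYC. The window runs along the plus strand of chr10:127063285-127063534, and capitals mark the E boxes.
Cdk4 promoter: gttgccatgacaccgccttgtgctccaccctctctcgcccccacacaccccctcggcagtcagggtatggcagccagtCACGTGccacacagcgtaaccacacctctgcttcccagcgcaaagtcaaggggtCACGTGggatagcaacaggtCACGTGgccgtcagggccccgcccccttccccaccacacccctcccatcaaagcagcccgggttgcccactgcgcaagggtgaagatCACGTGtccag
At least 1 E box was present in 6.02% of the 32851 promoter entries of this length, and 4 or more were present in 7 entries, or 0.0213%. Cdk6 held 1 E box and the other members in the table held none. E2F words (TTTCCCGC, TTTCGCGC, TTTGCCGC and TTTGGCGC, searched on both strands) were in none of the 6 member promoters, in 5 of 16 promoters of the E2F target genes listed further on, and in 1.86% of all entries. The E2f1 window, chr2:154569427-154569676 on the minus strand, lies inside the gene as annotated in GENCODE M21, whose 5' end is at 154569892. The Cdk6 window, chr5:3343643-3343892 on the plus strand, lies inside its gene too, whose 5' end is at 3341485. For E2f1 and Cdk6 the bases before that annotated 5' end were therefore not searched. Ccnd3 and E2f2 each had a further entry, inside the gene, which held no E box and no E2F word. Members were counted per gene, whereas the shares over all promoters are per entry. The words do not overlap CACGTG. They were searched after the expression values were known, and a match describes letters only.

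The first question was how these genes differed between the germinal center cells and their counterparts sorted from draining nodes on the same day. In WT mice, 8 of the 10 genes rose in GC B cells against non-GC B cells and none fell. Of the 13324 genes tested there, 24.8% rose, 23.1% fell and 47.8% were called in either direction. The E cyclins and E2F1 rose most, then Ccnd3 and E2f2, and Ccnd2, Cdk4 and Cdk6 rose by 1.90- to 2.23-fold. In Tfh cells against non-Tfh cells, 7 genes rose, with a background of 22.8%, and 1 gene, Ccnd2, fell, with a background of 20.4%. In either direction 43.2% of genes were called in the CD4 T cells. The 2 groups did not overlap for 7 members in B cells, beside 50.8% of all genes, and for 9 members in T cells, beside 48.5%. The members' median log2 difference was 1.54 in B cells and 1.60 in T cells, beside a median over all tested genes of 0.00 in both. These are bulk samples, in which fewer cells of a type and less RNA per cell cannot be told apart. A sum of 6 proliferation markers moved with the same sorts, from 11.4 to 25.0 CPM in WT non-GC B cells to 894 to 2028 CPM in WT GC B cells and from 33.2 to 128 CPM in WT non-Tfh cells to 1146 to 1632 CPM in WT Tfh cells. Markers of other cell types moved with the sorts too. In WT GC B against non-GC B cells 7 of 8 plasma cell markers passed the FDR (median log2 difference 3.25), with sums of 4043 to 8886 CPM against 513 to 861 CPM, and Tnfrsf17 was under 1 CPM in every non-GC B sample. In WT Tfh against non-Tfh cells all 12 B cell markers were higher at the FDR (median 2.97), with sums of 501 to 1296 against 40.4 to 209 CPM and Pax5 under 1 CPM in every non-Tfh sample, and 7 of 7 plasma cell markers tested were higher (median 3.202). The part of cells in cycle and of these other cells in the values below was not tested.

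**Figure D1:**
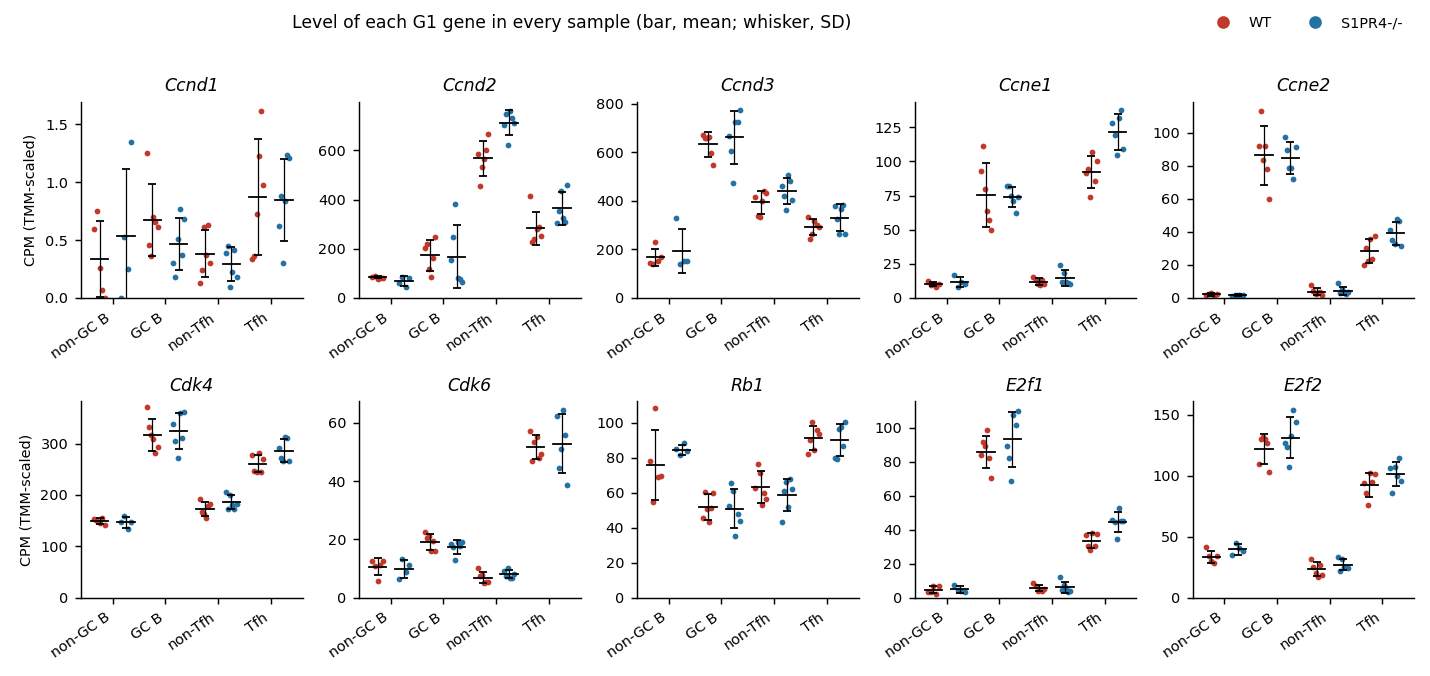
Level of each of the 10 genes in every sample (CPM, linear axis from 0), by population and genotype (WT red, S1PR4-/- blue), with the group mean as a bar and the SD as whiskers. Ccne2 and E2f1 lie lowest in non-GC B and non-Tfh samples and highest in GC B samples, Cdk6 is highest in Tfh samples and Ccnd2 in non-Tfh samples.

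Among the D cyclins, Ccnd3 and Ccnd2 carried nearly all reads and moved in different ways in B and T cells. Ccnd3, the D cyclin of dividing GC B cells, was at 145, 138, 228, 153 and 170.2 CPM in the 5 WT non-GC B samples. In WT GC B cells its lowest, median and highest values were 545, 658 and 671 CPM. Every GC B sample stood above every non-GC B sample, a 3.96-fold rise (log2 1.99, SE 0.13, edgeR FDR 6.28e-08). In T cells the same gene ran from 335 through a median of 409 to 440.0 CPM in WT non-Tfh samples and from 243 through 295 to 332 CPM in WT Tfh samples. These groups did not overlap either, but the log2 difference of -0.43 (SE 0.09, edgeR FDR 0.00056) stayed within the 1.5-fold limit.

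Ccnd2, the D cyclin that responds to antigen and cytokine signals in resting lymphocytes, had its highest level among the WT groups in non-Tfh cells, with 455, 576 and 667 CPM as lowest, median and highest. In WT Tfh cells these values were 228, 265 and 413 CPM. All Tfh samples were below all non-Tfh samples, a 2.00-fold fall (log2 -1.003, SE 0.13, edgeR FDR 8.25e-06). In WT non-GC B cells Ccnd2 was tight, at 85.6, 88.7, 78.0, 82.2 and 81.6 CPM, while WT GC B samples spread from 85.2 through 182 to 249 CPM. The ranges overlapped, and the 2.18-fold rise in GC B cells (log2 1.12, SE 0.23) had an edgeR FDR of 0.000749. In the 6 S1PR4-/- GC B samples the range was wider still, 63.1 to 383 CPM with a median of 118 CPM. These samples stood apart as replicates 1, 2 and 3, at 155, 249.6 and 383 CPM of Ccnd2, and replicates 4, 5 and 6, at 81.2, 76.8 and 63.1 CPM. The sum of 8 plasma cell markers differed between the same samples, at 5701, 8504 and 17946 CPM in replicates 1 to 3 and 2061, 2468 and 2091 CPM in replicates 4 to 6. In WT GC B replicates 1 to 6 Ccnd2 was at 201, 221, 119, 85.2, 163 and 249 CPM. The plasma cell sums there were 5186, 8886, 5093, 4043, 4243 and 4569 CPM, so that the sample highest in Ccnd2 was not high in this sum. The part of plasma cells in the Ccnd2 spread was not tested. A split between replicates 1 to 3 and 4 to 6 was also seen for Ccne1 in WT GC B cells. It was at 93.2, 111 and 79.5 CPM against 63.5, 57.4 and 49.5 CPM. In WT Tfh cells Ccne1 was not split, at 91.3, 94.5 and 74.2 CPM against 107, 85.9 and 100.5 CPM. How many genes and groups had such a split was not counted.

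Ccnd1, the D cyclin of non-lymphoid tissues, was close to the detection limit throughout, with no sample above 1.61 CPM and 2 samples of non-GC B cells at 0. In WT Tfh samples it ran from 0.339 through 0.853 to 1.61 CPM and in WT non-Tfh samples from 0.128 through 0.335 to 0.632 CPM. The groups overlapped, and the log2 difference was 1.20 (SE 0.46, edgeR FDR 0.0307). Leaving out any of 3 Tfh or 3 non-Tfh samples took the FDR to 0.0532 to 0.0911. In B cells the WT difference of 1.06 (SE 0.70) did not pass, with an edgeR FDR of 0.199 and a 95% interval from -0.47 to 2.58. Its exons share 23.4% of their bases with a gene on the opposite strand, which matters at such low levels because the strand setting of the counting was not given in the sources used here.

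The D cyclin kinases differed in the population where their level was highest, GC B cells for Cdk4 and Tfh cells for Cdk6. Cdk4 was at 154, 149, 146, 154 and 141 CPM in WT non-GC B samples and from 282 through 312 to 370.3 CPM in WT GC B samples, without overlap. This was a 2.23-fold rise (log2 1.15, SE 0.08, edgeR FDR 6.81e-08). In T cells Cdk4 went from 155, 172 and 192 CPM (lowest, median and highest WT non-Tfh) to 245, 258 and 282 CPM in WT Tfh cells, again without overlap. At 1.51-fold (log2 0.60, SE 0.06, edgeR FDR 9.92e-07) the T cell rise sat on the fold limit, and it was 0.54 when samples were scaled by total counts. Leaving out any of 5 samples (Tfh WT 1 or 4, non-Tfh WT 2, 3 or 4) left the log2 difference at 0.57 to 0.58, under the limit.

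Cdk6, the second D cyclin kinase and one prominent in blood cells, had its highest level in Tfh cells. WT Tfh samples ran from 47.0 through 51.3 to 57.2 CPM and WT non-Tfh samples from 5.08 through 6.55 to 10.2 CPM, a 7.50-fold rise with no overlap (log2 2.91, SE 0.16, edgeR FDR 1.04e-09). In B cells, WT GC B samples held 15.9, 20.0 and 22.6 CPM (lowest, median, highest) and WT non-GC B samples 12.7, 10.8, 5.70, 11.3 and 12.8 CPM. The B cell rise was 1.90-fold (log2 0.92, SE 0.20, edgeR FDR 0.00103). All 6 WT Tfh samples were above all 6 WT GC B samples.

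Rb1, the target of these kinases and the brake on E2F, was called in neither lineage in WT mice. WT GC B samples ran from 43.0 through 50.8 to 60.4 CPM, and WT non-GC B samples were at 77.9, 54.4, 108, 68.8 and 69.4 CPM. The groups overlapped, and the log2 difference of -0.49 (SE 0.16, edgeR FDR 0.0159) was within the 1.5-fold limit. In T cells the sign was opposite, with 82.1, 91.9 and 100.04 CPM in WT Tfh samples against 52.8, 61.2 and 76.4 CPM in WT non-Tfh samples. Those groups did not overlap, with a log2 difference of 0.53 (SE 0.09, edgeR FDR 0.000102) that also stayed within the limit. Both calls turned on single samples. Without non-GC B WT replicate 2 the B cell value was -0.59 and without non-Tfh WT replicate 2 the T cell value was 0.59, each then past the limit.

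Both E cyclins, which activate CDK2 at the start of S phase, rose in both lineages. Ccne2 was at 1.56, 2.66, 3.15, 1.35 and 2.35 CPM in WT non-GC B samples and from 59.8 through 87.7 to 113 CPM in WT GC B samples. This 40.8-fold rise (log2 5.35, SE 0.25, edgeR FDR 5.12e-09) was the largest of the 10 genes in that comparison. In WT T cells Ccne2 went from 1.91, 3.34 and 7.60 CPM in non-Tfh samples to 20.1, 27.1 and 37.5 CPM in Tfh samples, a 7.54-fold rise (log2 2.92, SE 0.30, edgeR FDR 5.97e-07). In neither lineage did the groups overlap. Ccne1 was at 12.5, 9.80, 10.1, 7.98 and 10.6 CPM in WT non-GC B samples and at 49.5, 71.5 and 111 CPM (lowest, median and highest) in WT GC B samples, a 7.78-fold rise (log2 2.96, SE 0.22, edgeR FDR 1.75e-07). WT non-Tfh samples held 9.16, 11.9 and 15.3 CPM and WT Tfh samples 74.2, 92.9 and 107 CPM, a 7.70-fold rise (log2 2.94, SE 0.13, edgeR FDR 1.52e-10). Ccne1 therefore had nearly the same fold in the B and T cell sorts, whereas that of Ccne2 was larger in B cells.

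The E2F activators followed the E cyclins. E2f1 was at 3.51, 3.54, 6.91, 2.23 and 6.68 CPM in WT non-GC B samples and between 70.4 and 98.4 CPM, with a median of 86.7 CPM, in WT GC B samples (19.6-fold, log2 4.29, SE 0.27, edgeR FDR 5.08e-08). In T cells it went from 3.75, 5.03 and 8.37 CPM in WT non-Tfh samples to 28.3, 33.7 and 38.1 CPM in WT Tfh samples (6.15-fold, log2 2.62, SE 0.19, edgeR FDR 1.43e-08). Neither pair of groups overlapped. E2f2 started from a higher level in the non-GC B samples, 41.5, 34.1, 30.1, 28.8 and 33.8 CPM, and reached 103, 128 and 132 CPM in WT GC B samples (3.79-fold, log2 1.92, SE 0.11, edgeR FDR 2.00e-08). WT non-Tfh samples had 16.6, 22.8 and 32.0 CPM of E2f2 and WT Tfh samples 76.3, 94.4 and 102 CPM (3.98-fold, log2 1.99, SE 0.14, edgeR FDR 1.49e-08).

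In the S1PR4-/- mice, 9 of the 10 genes were called in the B cell comparison, 8 higher in GC B cells and 1 lower. Of all genes 48.2% were called there, 25.3% higher and 22.9% lower. In the T cell comparison 9 members were called, again 8 higher and 1 lower, where 43.4% of all genes were called, 22.3% higher and 21.1% lower. With the B cell marker sum as a covariate, which nearly follows these groups, 2 of the 9 calls were left (Ccnd2 and Cdk6). The log2 difference was then 2.76 for Ccne1 (SE 0.84), 2.75 for Ccne2 (SE 1.15), 2.21 for E2f1 (SE 1.11) and 1.69 for E2f2 (SE 0.48), with larger errors. Ccne2 (5.69), E2f1 (4.33) and Ccne1 (2.73) again had the largest log2 differences in B cells, and Ccne2 (3.17), Ccne1 (3.07) and E2f1 (2.88) in T cells. Rb1 passed the fold limit in both lineages here, at -0.68 (SE 0.15, edgeR FDR 0.00169) in B cells and 0.63 (SE 0.11, edgeR FDR 0.000136) in T cells, the latter at 0.55 without non-Tfh S1PR4-/- replicate 1. Ccnd1 was called in T cells (1.55, SE 0.42, edgeR FDR 0.00409) and not in B cells (-0.13, SE 0.80, edgeR FDR 0.897). The Ccnd2 rise in S1PR4-/- GC B cells (1.34, SE 0.50, edgeR FDR 0.0344) was lost on leaving out any 1 of 7 samples: GC B S1PR4-/- replicates 1, 2 or 3 or any non-GC B one. The FDR was then 0.0545 to 0.103, and without GC B replicate 3, the sample at 383 CPM, the value was 0.92 with an FDR of 0.0656.

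**Figure D2:**
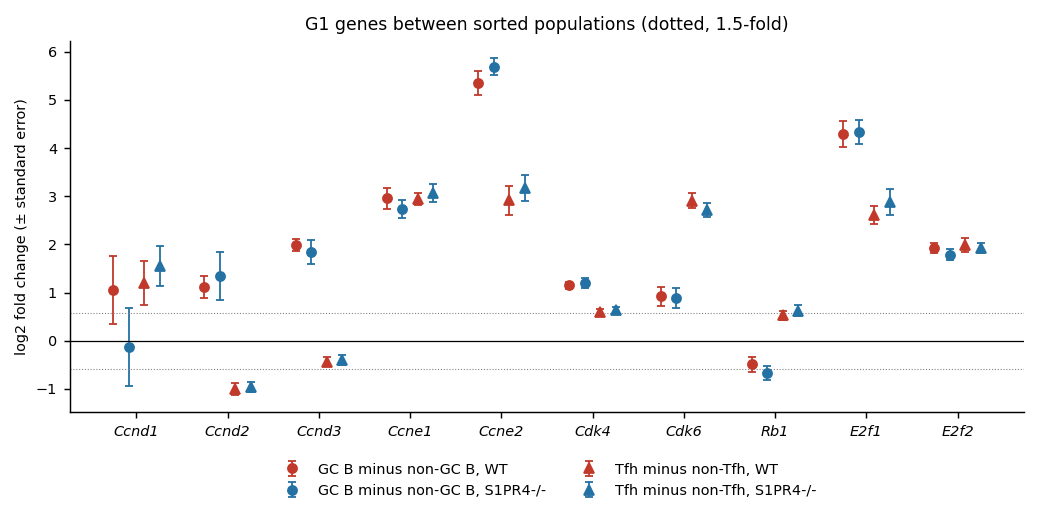
Log2 fold change of each gene between the sorts of each lineage (circles, GC B against non-GC B, and triangles, Tfh against non-Tfh), for each genotype (WT red, S1PR4-/- blue), with the standard error as whiskers and the 1.5-fold limit dotted. Ccne1, Ccne2, E2f1 and E2f2 lie above 1 in all 4 comparisons, and Ccnd2 and Ccnd3 have opposite signs in B and T cells.

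Whether the GC B difference itself differed from the Tfh difference was tested as an interaction in WT samples. It passed for 7 of the 10 genes at an FDR under 0.05, where 41.7% of the 15101 genes tested passed, 20.3% with the larger difference in B cells and 21.4% with the smaller. In 5 genes the GC B difference was the larger: Ccne2 by 2.37 on the log2 scale (SE 0.39, edgeR FDR 4.08e-05), Ccnd3 by 2.36 (SE 0.16, FDR 8.01e-11), Ccnd2 by 2.06 (SE 0.28, FDR 2.48e-06), E2f1 by 1.61 (SE 0.32, FDR 0.000261) and Cdk4 by 0.49 (SE 0.09, FDR 0.000202). In 2 genes it was the smaller: Cdk6 by -2.05 (SE 0.26, edgeR FDR 9.29e-07) and Rb1 by -1.08 (SE 0.18, FDR 5.31e-05). The other genes did not pass. The interval for Ccne1 ran from -0.56 to 0.45 and that for E2f2 from -0.52 to 0.25, both around small values of -0.05 and -0.13, while Ccnd1 had -0.20 with an edgeR FDR of 0.886. Lineage and day of sort cannot be told apart in these values.

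The order of the 4 WT populations differed from gene to gene. Of 30 neighbouring pairs (3 for each gene), 19 differed beyond their spread in an exact two-sided permutation test of log2 CPM with Benjamini-Hochberg adjustment over the 30. The smallest p that 6 against 6 samples can give is 0.00216, or 0.00433 after adjustment. Ccne2 and E2f1 rose from non-GC B and non-Tfh cells, which did not differ (adjusted exact p = 0.135 and 0.394), through Tfh to GC B cells. Ccnd3 and Cdk4 were also highest in GC B cells, but for Ccnd3 the order below was non-GC B, Tfh, non-Tfh. E2f2 had its lowest level in non-Tfh cells, below non-GC B cells (adjusted exact p = 0.0239), then Tfh and GC B. Cdk6 stood highest in Tfh cells, then GC B cells, with non-Tfh and non-GC B cells not told apart (adjusted exact p = 0.0711). Ccnd2 rose from non-GC B through GC B and Tfh up to non-Tfh cells, with all 3 steps past the test. For Ccne1, Tfh and GC B cells did not differ beyond their spread (adjusted exact p = 0.153), nor did non-GC B and non-Tfh cells (0.232). For Rb1 and Ccnd1, none of the 3 neighbouring pairs differed.

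Ratios within a sample, per kilobase of exon, are free of depth and scaling and describe the balance of a pair after correction for length. They are not shares of reads. In counts the WT GC B medians were 0.892 for Ccne1 to Ccne2 and 0.694 for E2f1 to E2f2. The WT Tfh median for Cdk4 to Cdk6 was 5.10 in counts. The values that follow are per kilobase. Cdk4 stood above Cdk6 in every sample, but its ratio to Cdk6 had a median of 22.0 in WT Tfh cells (range 19.8 to 23.6) against 113 in WT non-Tfh cells (81.0 to 149), 70.4 in WT GC B cells (61.9 to 83.6) and 58.7 in WT non-GC B cells (47.7 to 111). The Tfh range lay below those of all 3 other WT populations. Ccne1 and Ccne2 were about even in WT GC B cells, with a median ratio of 1.17 (0.902 to 1.33), and Ccne1 was the larger elsewhere, at 4.19 (3.52 to 5.95) in WT Tfh cells and 5.89 (4.22 to 10.5) in WT non-GC B cells. The ratio of E2f1 to E2f2 was close to even in GC B cells, at 1.07 (1.01 to 1.19) in WT, and reached 0.570 (0.494 to 0.610) in WT Tfh cells, 0.410 (0.222 to 0.448) in WT non-Tfh cells and 0.161 (0.120 to 0.355) in WT non-GC B cells.

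The balance of the D cyclins also shifted between the sorts. Ccnd3 made up a median of 78.8% of D cyclin level per kilobase in WT GC B cells, 66.6% in WT non-GC B cells, 53.7% in WT Tfh cells and 43.2% in WT non-Tfh cells. Ccnd1 never passed 1.09%. The ratio of Ccnd2 to Ccnd3 had a median of 0.267 (0.120 to 0.425) in WT GC B cells, 0.860 (0.807 to 1.16) in WT Tfh cells and 1.31 (1.26 to 1.48) in WT non-Tfh cells. Which of these 2 genes was the larger in T cells depended on the length used: with the longest transcript in place of all exons the non-Tfh median was 0.471. The order of the populations does not depend on the length.

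**Figure D3:**
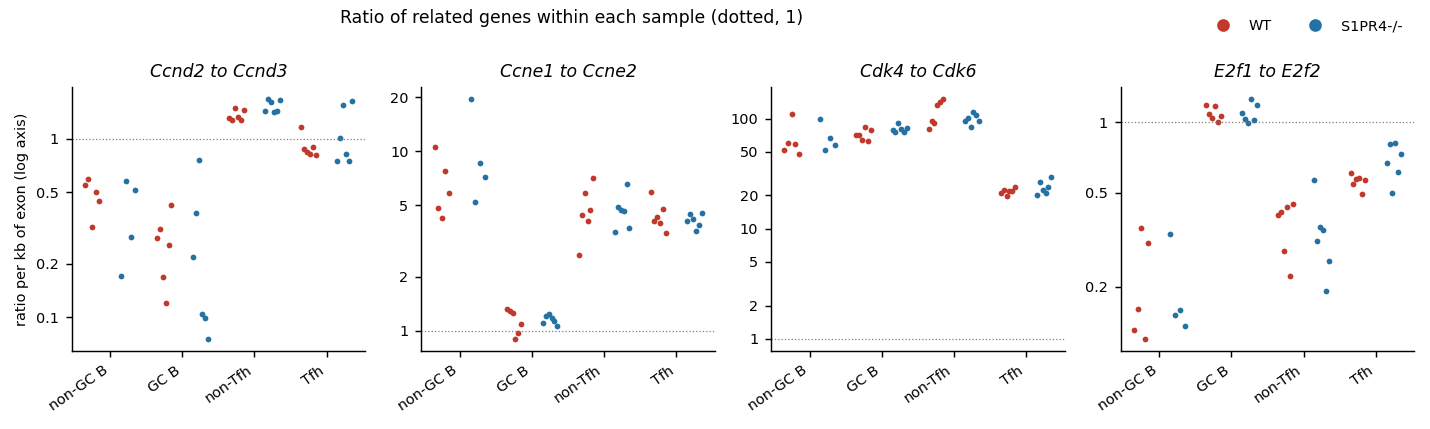
Ratio of 4 gene pairs within each sample, per kilobase of exon (log scale), by population and genotype (WT red, S1PR4-/- blue), with a dotted line at 1. Cdk4 to Cdk6 is lowest in Tfh samples, and Ccne1 to Ccne2 and E2f1 to E2f2 lie near 1 in GC B samples.

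The second question was the effect of losing S1PR4 within each population. In none of the 4 populations was any of the 10 genes called between S1PR4-/- and WT samples by edgeR, where 0.0612% of genes were called in GC B, 0.0537% in non-GC B, 0.496% in Tfh and 0.114% in non-Tfh cells. DESeq2 and limma-voom also called 0 of the 10 at this fold limit in each population. At an unadjusted edgeR p under 0.05 there were 0 members in GC B cells (4.13% of all genes), 0 in non-GC B cells (4.55%), 4 in Tfh cells (19.2%) and 1 in non-Tfh cells (11.3%). For every member the S1PR4-/- and WT ranges overlapped in all 4 populations, while over all genes 0.207% in GC B, 1.79% in non-GC B, 1.87% in Tfh and 1.17% in non-Tfh cells did not overlap.

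In GC B cells the estimates were near 0 for most members. The log2 difference (S1PR4-/- minus WT) was 0.06 for Ccnd3, with a 95% interval from -0.17 to 0.28, and 0.03 for Cdk4, from -0.16 to 0.21. It was -0.03 for Ccne2, from -0.32 to 0.25, and 0.11 for E2f1, from -0.13 to 0.35. Ccnd2 at -0.03 had a far wider interval, -0.98 to 0.91, which comes with the wide spread of this gene in GC B samples given above. The 95% interval of Ccnd2 thus reached nearly a 2-fold change in either direction. Those of Cdk4, Ccnd3, E2f1, Ccne2, Ccne1, Cdk6, Rb1 and E2f2 stayed within the 1.5-fold limit. That of Ccnd1, from -1.36 to 0.29, did not. Changes beyond the edges of a 95% interval are not excluded. In non-GC B cells the log2 difference of Cdk4 was -0.02 (95% interval -0.17 to 0.13), that of E2f2 0.24 (-0.03 to 0.50), and that of Ccnd1, at its very low counts, 0.66 (-1.83 to 3.15).

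In Tfh cells the values of Ccne1 and E2f1 were the farthest from 0 relative to their errors. Ccne1 ran from 74.2 through 92.9 to 107 CPM in WT Tfh samples and from 104 through 124 to 137 CPM in S1PR4-/- Tfh samples, so that only the ends of the ranges overlapped. Its log2 difference was 0.39 (SE 0.09, 1.31-fold, edgeR FDR 0.0499), past the FDR but not the fold limit, and it was the 1 member of 10 with an FDR under 0.05, beside 1.41% of all genes. E2f1 went from 28.3, 33.7 and 38.1 CPM to 34.5, 45.3 and 52.7 CPM, a log2 difference of 0.41 (SE 0.10, 1.33-fold, edgeR FDR 0.0552). Ccne2 had 0.46 (SE 0.16, FDR 0.133) and Ccnd2 0.36 (SE 0.15, edgeR FDR 0.209). For Ccnd2, Ccne1, Ccne2, Cdk4 and E2f1 all 6 S1PR4-/- Tfh samples were above the WT mean. The share of all genes with this pattern was not counted, so it cannot be said whether this is unusual. The intervals for Cdk6 (-0.21 to 0.26), Rb1 (-0.18 to 0.13) and E2f2 (-0.05 to 0.30) were narrow and held 0.

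The Tfh values changed with the settings and when a sum of B cell markers was added to the fit. The FDR of Ccne1 ran from 0.00235 with DESeq2 to 0.314 with all 8 groups in a single fit, and that of E2f1 from 0.0054 to 0.487. Leaving out 1 sample at a time gave Ccne1 values of 0.34 to 0.44 with FDRs of 0.0336 to 0.109. The sum of 12 B cell markers was 501 to 1296 CPM in WT and 371 to 772 CPM in S1PR4-/- Tfh samples. In WT replicates 1 to 3 it was 1048, 1296 and 975 CPM. In WT replicates 4 to 6 it was 501, 572 and 530 CPM, within the S1PR4-/- range. With that sum as a covariate the log2 difference of Ccne1 was 0.27 (edgeR FDR 0.248), that of E2f1 0.30 (FDR 0.282) and that of Ccne2 0.22 (FDR 0.593). Of 7 plasma cell markers tested in this comparison 3 passed the FDR and 6 had a negative difference (median log2 difference -1.35), with sums of 285 to 662 CPM in WT and 241 to 289 CPM in S1PR4-/- Tfh samples. The proliferation markers summed to 1146 to 1632 CPM in WT and 1353 to 1934 CPM in S1PR4-/- Tfh samples, and the part of plasma cells and of cells in cycle in these differences was not tested.

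In non-Tfh cells Ccnd2 was the 1 member with an unadjusted edgeR p under 0.05. WT samples ran from 455 through 576 to 667 CPM and S1PR4-/- samples from 623 through 721 to 762 CPM, with overlap. The log2 difference was 0.33 (SE 0.08, edgeR FDR 0.115), with a 95% interval from 0.16 to 0.50, and the DESeq2 FDR was 0.0122. A positive log2 difference was seen in 8 of 10 members in Tfh and in 8 of 10 in non-Tfh cells, beside 49.4% and 51.2% of all genes. No interaction of genotype and population passed for any member, with edgeR FDRs of 0.824 to 0.993 in T cells and near 1 in B cells. Of 14490 genes 0% passed in B cells, and 0.0139% passed in T cells. By unadjusted edgeR p and by DESeq2, 0 of the 10 members passed in either lineage. Over all genes, 664 of 14490 in B cells and 1325 of 14401 in T cells had an unadjusted edgeR p under 0.05. DESeq2 passed 6 genes in B cells and 76 in T cells. For Cdk6 in T cells the interaction was -0.22, with an interval from -0.66 to 0.23, and for Ccne2 in B cells it was 0.35, from -0.26 to 0.95.

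**Figure D4:**
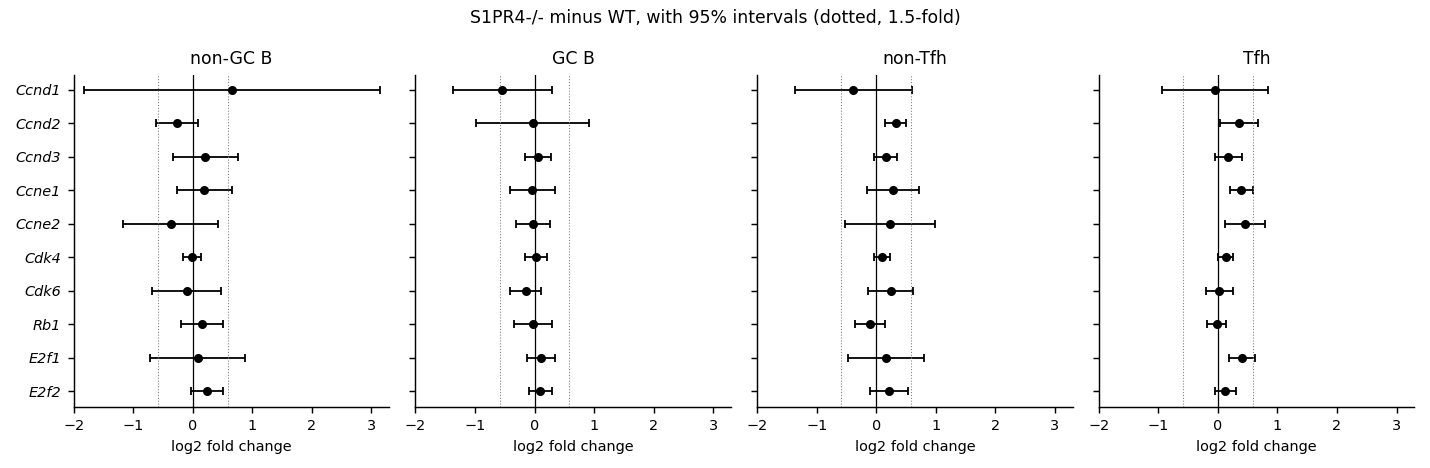
Log2 fold change of each gene in S1PR4-/- against WT samples in each of the 4 populations, with 95% intervals and the 1.5-fold limit dotted. The intervals of Ccne1, Ccne2, E2f1 and Ccnd2 in Tfh cells and of Ccnd2 in non-Tfh cells lie above 0 and all others hold 0, and that of Ccnd1 in non-GC B cells is the widest.

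The rest of the pathway was described by 4 lists. Of 10 genes for other E2F, DP and pocket proteins, 8 rose and 1 fell in WT GC B cells, beside 24.8% and 23.1% of all genes, with a median log2 difference of 1.10. The gene that fell was Rbl2 (-0.99), the pocket protein of quiescent cells. E2f7 and E2f8, the atypical repressors of E2F targets, rose from levels near 0 in non-GC B cells, which makes their fold depend on the prior count. In WT Tfh cells 5 of the 10 rose and 1 fell, E2f5 (-0.64), beside 22.8% and 20.4% of all genes, with E2f7 at 3.66 and E2f8 at 4.26.

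In B cells the shares of CDK inhibitors called were near those over all genes. In WT GC B cells 6 of the 7 listed were tested, of which Cdkn1a (1.24) and Cdkn2c (2.88) rose and Cdkn1b (-1.47), the inhibitor that holds resting lymphocytes out of cycle, fell, beside 24.8% and 23.1% of all genes. Cdkn2c, an inhibitor of CDK4 and CDK6 themselves, went from a mean of 7.02 to 49.2 CPM. In WT Tfh cells 5 were tested, and Cdkn1a (3.55) and Cdkn2c (3.66) rose, from 1.05 to 12.3 and from 8.98 to 114 CPM, and none fell, beside 22.8% and 20.4% of all genes. The Cdkn1a difference was smaller in B than in T cells by -2.38 in the interaction test.

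Of 13 late G1 and S phase kinases, cyclins and regulators, 12 rose in WT GC B cells (median 2.26), beside 24.8% of all genes, and 8 in WT Tfh cells (median 1.53), beside 22.8%, and none fell in either. Ccna2, the cyclin of S phase, had log2 differences of 7.36 and 4.62, while Cdk7, part of the CDK-activating kinase, had 0.07 and -0.18. Of 18 E2F target genes 17 rose in each sort, beside the same 24.8% and 22.8%, with medians of 2.81 and 1.97. Cdt1, a replication licensing factor, was the exception in both, at -0.28 and 0.12. For the S1PR4-/- comparison no gene of the 4 lists was called in any population. In Tfh cells all 18 E2F targets had a positive log2 difference (median 0.37), beside 49.4% of all genes. There 3 had an FDR under 0.05, beside 1.41% of all genes. In GC B cells 17 of 18 were positive (median 0.099), beside 51.7% of all genes. In non-Tfh cells 15 were (median 0.165), beside 51.2%, and in non-GC B cells 10 (median 0.023), beside 48.2%. None of the 18 had an FDR under 0.05 in those populations. Among the E2F, DP and pocket proteins 8 of 10 were positive in Tfh cells (median 0.23) and 3 had an FDR under 0.05. E2f8 had 0.47 at an edgeR FDR of 0.0266. In GC B cells 8 of 10 were positive too (median 0.058), in non-Tfh cells 6 of 10 (0.11) and in non-GC B cells 4 of 8 tested (0.036).

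**Figure D5:**
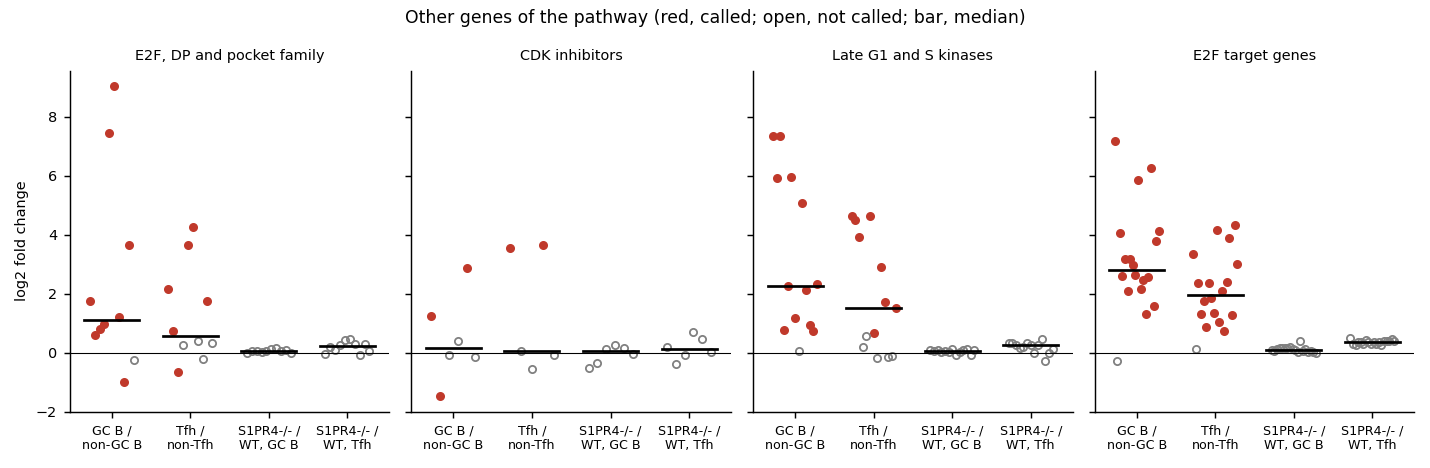
Log2 fold changes of the genes of 4 pathway lists in the WT population comparisons and in the genotype comparisons of GC B and Tfh cells. Each point is 1 gene, the bar is the list's median, and filled red points were called. The medians of the E2F targets are 2.81 and 1.97 in the population comparisons, and no point is filled in the genotype comparisons.

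Over all 45 samples, the genes whose log2 CPM most resembled a member differed from member to member. Among 9530 candidates, Cdk4 was most like Pcna (Pearson r = 0.989), Dut (0.987) and Mcm2 (0.986), genes of DNA synthesis. E2f1 was most like Prim1 (0.985), H2afx (0.985) and Hells (0.983), Ccne2 like Mybl2 (0.985) and Mcm3 (0.984), and Ccne1 like the mitotic kinase gene Aurka (0.989) and Ccnf (0.986). E2f2 had Dna2 (0.978) and Cdca7 (0.977). Cdk6 was most like Jdp2 (0.950), Mfsd10 (0.949) and Bcl2a1b (0.946), Ccnd3 like Psip1 (0.934) and Ccnd2 like Saraf (0.930). The closest genes to Rb1 (Ppt1, 0.855) and Ccnd1 (Naprt, 0.715) were less alike. These correlations describe 8 groups of samples that differ in population, and the samples of a group share it.

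The genes lie, in mm10 with the GENCODE M21 annotation whose gene set matches the table, at chr7:144929931-144939925 (Ccnd1, minus strand), chr6:127125162-127152193 (Ccnd2, minus), chr17:47505051-47599691 (Ccnd3, plus), chr7:38097984-38107534 (Ccne1, minus) and chr4:11191351-11204779 (Ccne2, plus). The kinases lie at chr10:127063534-127067920 (Cdk4, plus) and chr5:3341485-3531008 (Cdk6, plus), Rb1 at chr14:73183673-73325822 (minus), E2f1 at chr2:154559407-154569892 (minus) and E2f2 at chr4:136172394-136196057 (plus). Besides Ccnd1, the exons of Cdk4 (19.7%, Tspan31) and Ccne2 (17.4%, Ints8) have the largest shares of bases under a gene on the opposite strand, and reads there cannot be assigned with certainty without the strand setting.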

How the data were processed

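RNA from 45 samples of 8 groups was captured with oligo-dT beads and sequenced from a stranded kit. Per the labels, the authors used Cutadapt 2.10 for trimming, STAR 2.5.3 for alignment (genome mm10), Picard, and RSEM 1.3.0 for counting. The authors deposited the expected counts per gene without normalization. The strand setting is not given in the sources used here, and the annotation release named in the study's methods differs from M21, which the gene set matched. All columns were mapped by sample name. Expected counts were rounded (8.83% of values were not whole). edgeR 4.0.16 (R 4.3.3) was used with filterByExpr, TMM and the quasi-likelihood test on the compared groups only, Benjamini-Hochberg over all genes tested. Log2 levels used a prior count of 2. Intervals are 95% t intervals. Exact permutation tests used SciPy 1.17.1. The fit was tested on simulated data. Alternatives were RLE, total counts, no filter, DESeq2 1.42.0, limma-voom (limma 3.58.1), all groups in one fit, a replicate block, a B cell marker covariate in T cells, and leaving out each sample.

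All 10 members were described in each comparison. From 4 pathway lists at most 4 genes per list and comparison were named, those with the lowest and highest differences. The 3 best correlated genes were considered for each member, among genes with a mean of at least 5 CPM. The members and lists were chosen with earlier results of these data known, although the rule for the members uses symbols and no values. Replicate numbers are not stated to mark the same mouse. The study's methods give 6 WT and 6 S1PR4-/- mice for the sorts. They do not state which mouse gave which sample.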

Additional observations from a re-analysis of the deposited data

Results flagged for a closer look

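Among 80 sets of a gene in a group of 4 to 6 samples, 5 had 1 sample far from the others by Dixon's test, and chance flags about 1 in 20. Ccnd2 was at 413.5 CPM in Tfh WT replicate 1 and at 228 to 288 CPM in the other 5. Ccnd3 was at 329 CPM in non-GC B S1PR4-/- replicate 1 and at 141 to 152 CPM in the other 3. Ccne2 was at 7.60 CPM in non-Tfh WT replicate 1, the others being at 1.91 to 4.00 CPM. Cdk6 was at 5.70 CPM in non-GC B WT replicate 3, with 10.8 to 12.8 CPM in the others, and at 12.8 CPM in GC B S1PR4-/- replicate 3, with 17.6 to 19.2 CPM in the others.

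The GC B difference from non-GC B differed from the Tfh difference from non-Tfh, by the interaction test, for Ccnd2 (2.06 on the log2 scale), Ccnd3 (2.36), Ccne2 (2.37), Cdk4 (0.49), Cdk6 (-2.05), Rb1 (-1.08) and E2f1 (1.61).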

How the results depend on the processing

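The counts of members called changed little: with each sample left out they stayed at 8 to 9 for both B cell comparisons, 6 to 8 for WT Tfh and 8 to 9 for S1PR4-/- Tfh, and at 0 for the genotype. With the B cell marker covariate, which nearly follows the groups, the S1PR4-/- Tfh against non-Tfh count was 2 members and 549 genes, and Ccnd3 changed sign to 0.68. In WT mice the same covariate left 4071 genes called. Over all settings that kept every sample, the highest FDR in WT Tfh against non-Tfh cells was 0.000735 for Ccne2. It was lower for Ccne1, Cdk6, E2f1 and E2f2, and higher for the other members, up to 0.0862 for Ccnd1. With the FDR alone, 9262 (WT) and 9468 (S1PR4-/-) genes passed in Tfh against non-Tfh cells, and for the genotype 190 genes with 1 member in Tfh cells and 31 genes in non-Tfh cells. DESeq2 called 14, 16, 191 and 56 genes for the genotype in GC B, non-GC B, Tfh and non-Tfh cells, and 6 (B) and 76 (T) for the interactions. All groups in one fit gave 25 genes in non-GC B, 153 in Tfh and 5 for the B interaction. The covariate gave 30 genes in Tfh cells. The T interaction had 1 gene with total counts, 1 with limma-voom and 10 with the replicate block. Leaving out 1 sample gave 15 to 117 genes in Tfh and 11 to 27 in non-Tfh cells for the genotype.

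Replicate numbers were not shown to pair samples. Between the sorts of a lineage, 6 of 6 samples resembled their own number most in the T cells of S1PR4-/- mice (lowest same-number correlation 0.0866). This held for 4 of 5 in WT B cells, 4 of 6 in WT T cells and 0 of 4 in S1PR4-/- B cells. The main tests did not use the numbers as pairs. A replicate block ended no member's call. For E2f1 in Tfh cells by genotype the block gave 0.41 with an edgeR FDR of 0.0319. Signs also changed elsewhere, mostly for values near 0: Ccnd1 GC B against non-GC B in S1PR4-/- mice was 0.86 with limma-voom and 0.35 with the block, Ccne1 by genotype in GC B cells 0.019 with both, Ccnd1 by genotype 0.028 and 0.029 in Tfh cells and -0.20 with the block in non-GC B cells (0.66 as reported), Cdk6 -0.077 and Rb1 0.0088 in Tfh cells with the covariate, E2f1 in the B interaction -0.0091 with limma-voom and -0.026 with the block, and Ccnd1 between lineages 0.62 with limma-voom.

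Leaving out 1 sample at a time changed the sign within these ranges: Ccnd1 GC B against non-GC B in S1PR4-/- mice -0.54 to 0.87. By genotype in GC B cells: Ccnd2 -0.47 to 0.14, Ccne1 -0.13 to 0.12, Ccne2 -0.12 to 0.070, Cdk4 -0.0084 to 0.072 and Rb1 -0.11 to 0.057. In non-GC B cells: Ccnd1 -0.36 to 1.07, Ccnd3 -0.17 to 0.35, Ccne1 -0.014 to 0.34, Cdk4 -0.061 to 0.024, Cdk6 -0.28 to 0.056 and E2f1 -0.21 to 0.28. In Tfh cells: Ccnd1 -0.22 to 0.21, Cdk6 -0.038 to 0.10 and Rb1 -0.059 to 0.0058. In non-Tfh cells: Ccne2 -0.093 to 0.56 and E2f1 -0.14 to 0.33. Without GC B S1PR4-/- replicate 3, chosen after seeing the data, the B interaction was -0.19 for Ccnd2 and 0.037 for Cdk6. The causes were not tested. Counts were lowest for Ccnd1, which bounds its precision, and the effect of depth on the other genes was not tested.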
